A study of Mus musculus with 18 samples.

Results

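The genes described here code for the contents and companions of the azurophil (primary) granules of early granulocytes. They are 8 of the 25601 gene names in the expression tables, chosen by name: Elane, Prtn3, Ctsg, Prss57, Mpo, Ms4a3, Cst7 and Serpinb1a. The tables list them in capitals as ELANE, PRTN3, CTSG, PRSSL1 (the older name of Prss57), MPO, MS4A3, CST7 and SERPINB1A. All 8 were found in both tables, and all 8 passed the filter on low values. The set is wider than proteases: 4 members are serine proteases, 1 is a peroxidase, 1 is a membrane protein and 2 are protease inhibitors.

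Gene transcripts were measured by RNA sequencing in LSK cells, taken from C57Bl/6 mice. LSK cells are the fraction of bone marrow that lacks lineage markers and carries cKit and Sca1, and it holds the hematopoietic stem cells. The study set cells of previously irradiated mice against those of unirradiated mice and asked, by its title, about C/EBPα and Notch in the defect that radiation leaves in stem cells. There were 18 libraries in 6 groups of 3. For the irradiated groups, mice were given 2.5 Gy from a Cs-137 source and then left for 9 weeks or more, whereas control mice were not irradiated. The groups were freshly sorted LSK cells of irradiated mice and of control mice, with 3 mice pooled in each library, and 4 groups of cultures, each grown from 200 LSK cells of 1 mouse. The culture medium held SCF, Flt3L, IL-11 and IL-6, and after 6 days LSK cells were sorted out again. They came from irradiated mice with DL1, irradiated mice without DL1, control mice with DL1 and control mice without DL1. DL1 is read here as the Notch ligand Delta-like 1; neither its full name nor its form in the culture is given by the labels. The ages and sexes of the mice are not given.

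Azurophil granules are the first granules that a developing granulocyte makes, at the promyelocyte stage, and their proteins are stored for later release onto microbes. Transcription of their genes opens early, in granulocyte-monocyte progenitors, is driven by factors that include C/EBPα, PU.1, Runx1 and Myb, and closes again before neutrophils mature. The serine proteases are made as inactive precursors, are activated by cathepsin C, and are kept in check inside and outside the cell by inhibitors such as the serpins.

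Levels are in FPKM, in which fragment counts are divided by transcript length and by the size of the library. Relative depth, read from the spacing of the lowest values, lay between 0.756 and 1.09 of the first control library in cultures, except for irradiated replicate 2 with DL1 at 0.488, and between 0.644 and 1 in fresh libraries. The sum of FPKM was 544392 to 576680 in cultured and 762781 to 823321 in fresh libraries. The sort genes were present throughout. Kit, which codes for cKit, averaged 112 FPKM in fresh irradiated and 106 FPKM in fresh control libraries. It was lower in cultures, as given below, although the 2 tables were normalized separately. Ly6a, which codes for Sca1, averaged 549 FPKM in irradiated and 496 FPKM in control cultures without DL1. Among 10 stem cell and sort markers, 5 in irradiated and 4 in control cultures, with or without DL1, were under 1 FPKM in every library. None was in the fresh groups. The libraries are bulk RNA, so more cells of a kind and more transcript per cell cannot be told apart. Each cultured library came from 1 mouse and each fresh library from a pool; whether cultures with and without DL1 shared mice is not stated.

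In freshly sorted cells the 8 genes already covered a wide range, and Mpo was the highest. Mpo, the peroxidase that makes hypochlorous acid, averaged 542 ± 39.7 FPKM in irradiated and 462 ± 165 FPKM in control libraries (SD, n = 3 each). Prtn3 followed at 156 ± 15.6 FPKM in irradiated and 128 ± 16.4 FPKM in control libraries, and then Elane and Ctsg, whose libraries overlapped in both groups. Cst7, Ms4a3 and Prss57 were lowest, with group means between 7.13 and 17.8 FPKM. The 8 genes together held 0.117 to 0.135% of all FPKM in fresh irradiated libraries and 0.0775 to 0.131% in fresh control libraries.

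After culture the levels were higher throughout, although the 2 tables were normalized separately and no test was made between them. The summed share was 1.21 to 1.47% in irradiated cultures, 0.695 to 0.838% in control cultures, 0.746 to 0.894% in irradiated cultures with DL1 and 0.518 to 0.555% in control cultures with DL1. In control cultures the order of mean levels was Mpo, Prtn3, Ctsg, Elane, Ms4a3, Serpinb1a, Cst7 and Prss57, and no neighbours in that order overlapped. Irradiated cultures differed in the middle of that order: Prtn3, Elane and Ctsg averaged 1398 ± 107, 1234 ± 218 and 1180 ± 94.9 FPKM, and their libraries overlapped. The gene whose place moved most was Ms4a3, a membrane-spanning protein that marks granulocyte-monocyte progenitors. In fresh libraries between 68.4 and 83.3% of all names were lower than Ms4a3, and in cultured libraries between 98.6 and 99.4%. It made up 1.09 to 1.88% of the summed FPKM of the 8 genes in fresh libraries and 6.36 to 9.74% in cultures. Mpo made up 52.7 to 61.3% of that sum in fresh libraries and 33.6 to 38.9% in cultures.

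**Figure D1:**
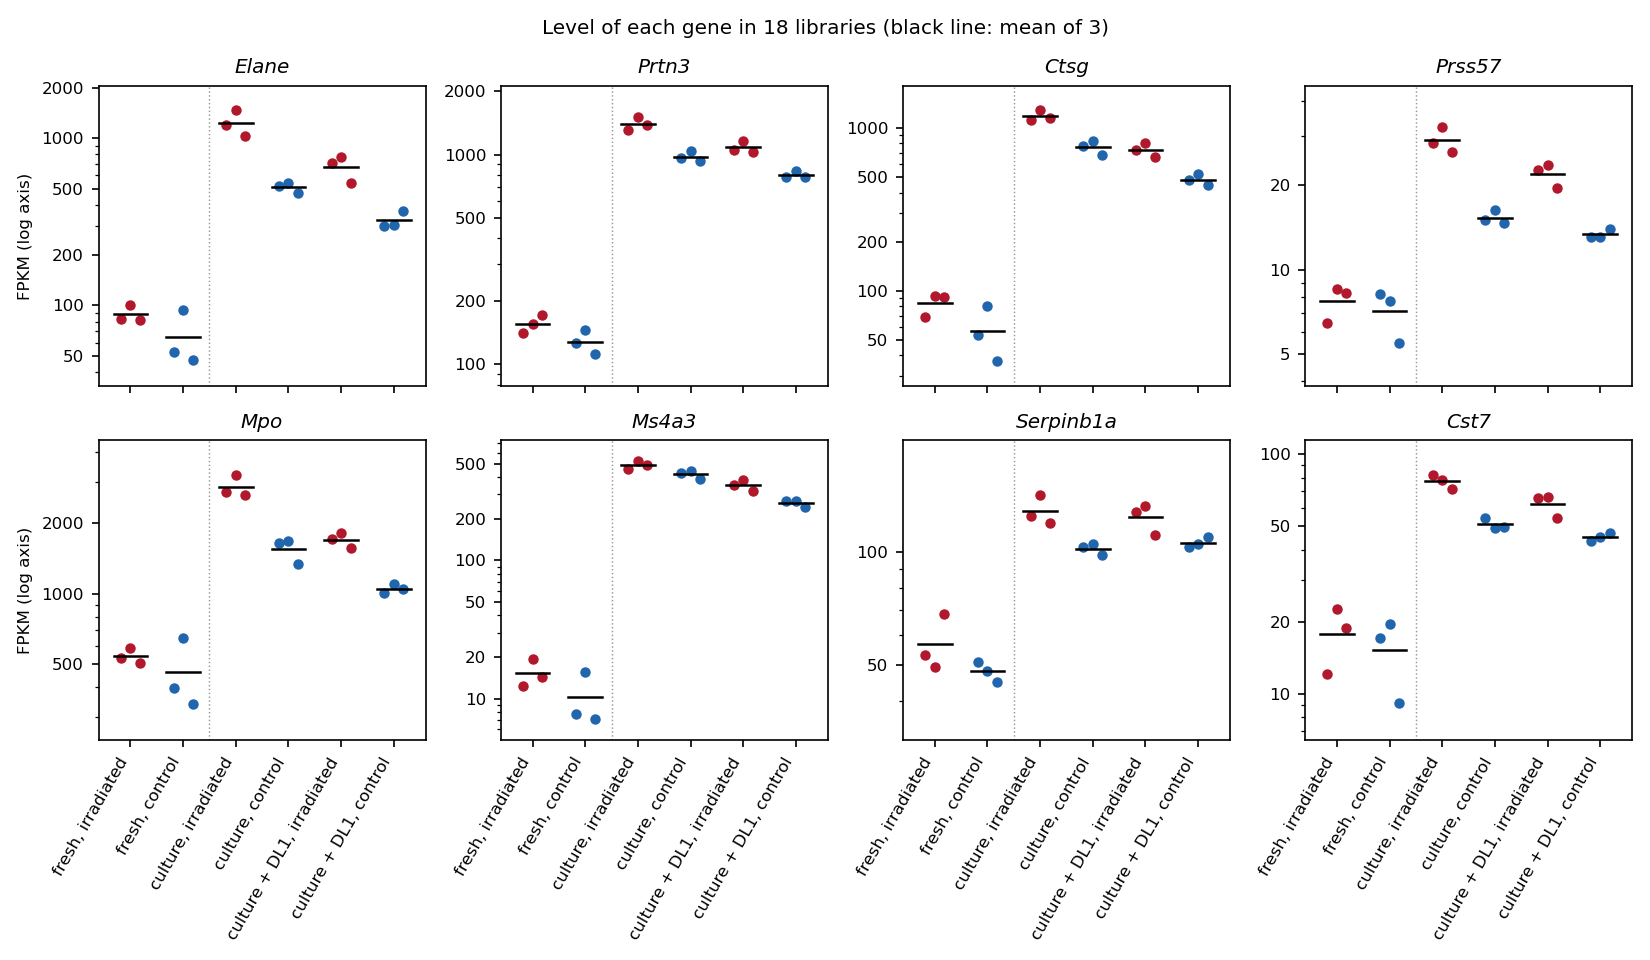
Level of each of the 8 genes in every library, in FPKM on a log axis, with fresh libraries left of the dotted line and cultures right of it. Dots are the 3 libraries of a group and black lines their means; red is irradiated and blue is control, and in cultures without DL1 every red dot lies above every blue one.

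In cultures without DL1, all 8 genes rose after irradiation, with the smallest changes in the inhibitor Serpinb1a and the membrane protein Ms4a3. Of all 12011 genes tested, 29.7% were called in either direction and 13.8% were higher (limma, adjusted p under 0.05 by Benjamini-Hochberg). The 3568 genes called became 1656 with only those 2 groups in the fit, 1880 without control replicate 2 and 2179 without irradiated replicate 1. The median change of the 8 genes was 0.61, against -0.026 over all genes tested, on the log2(FPKM + 1) scale used for all changes. None of the 8 had irradiated and control libraries that overlapped, which held for 17.6% of all genes in that direction.

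Elane, neutrophil elastase, had 1205, 1465 and 1032 FPKM in irradiated cultures, against 518, 538 and 473 FPKM in control cultures. The lowest irradiated library was far above the highest control library. Its log2 fold change of 1.26 ± 0.14 (SE; limma adjusted p = 0.000218) was the largest of the 8. Prtn3, proteinase 3, a close relative of elastase, had 1305, 1515 and 1375 FPKM in irradiated cultures, against 957, 1035 and 933 FPKM in control cultures. Its groups were apart as well, but by less, with a log2 fold change of 0.52 ± 0.070 (limma adjusted p = 0.000577). Ctsg, cathepsin G, had 1110.2, 1288 and 1141 FPKM in irradiated and 774, 834 and 677 FPKM in control cultures, a change of 0.63 ± 0.096 (limma adjusted p = 0.000977). Prss57, neutrophil serine protease 4, was the least abundant member yet among those that changed most. It had 28.3, 32.2 and 26.2 FPKM in irradiated cultures, against 15.0, 16.3 and 14.7 FPKM in control cultures, a change of 0.87 ± 0.082 (limma adjusted p = 9.7e-05).

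Mpo had 2726, 3218 and 2646 FPKM in irradiated cultures, against 1647, 1683 and 1334 FPKM in control cultures. That change was 0.88 ± 0.099 (limma adjusted p = 0.000217). In all 5 of Elane, Prtn3, Ctsg, Prss57 and Mpo, replicate 2 was the highest irradiated library. Ms4a3 had 458, 526 and 492 FPKM in irradiated and 425, 444 and 386 FPKM in control cultures. The gap between its groups was narrow, and the change of 0.23 ± 0.077 (limma adjusted p = 0.0398) was the only one of the 8 whose call depended on the setting. Its adjusted p was 0.0860 with only those 2 groups in the fit, 0.0775 with no filter, and 0.0716, 0.0503 and 0.128 without control replicates 1, 2 and 3. Without irradiated replicates 2 and 3 it was 0.140 and 0.0562.

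The inhibitors also rose. Cst7 codes for cystatin F, an inhibitor of cysteine proteases that include cathepsin C. It had 81.8, 78.5 and 71.8 FPKM in irradiated cultures and 54.2, 49.4 and 49.8 FPKM in control cultures, a change of 0.59 ± 0.077 (limma adjusted p = 0.000479). Serpinb1a, a mouse counterpart of the human inhibitor of elastase, proteinase 3 and cathepsin G, had 125, 142 and 120.0 FPKM in irradiated and 103, 105 and 98.1 FPKM in control cultures. Its change was 0.33 ± 0.073 (limma adjusted p = 0.00638). Reads of Serpinb1a may in part be shared with its related genes Serpinb1b and Serpinb1c, and how the authors' counting split such reads is not stated.

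The level of the inhibitor relative to its target differed between the groups as well. Serpinb1a stood at 0.0972 to 0.116 of the Elane level in irradiated cultures and at 0.195 to 0.208 in control cultures, without overlap. With DL1 the ratio was 0.173 to 0.206 in irradiated and 0.297 to 0.349 in control cultures, again without overlap. Elane stood at 0.390 to 0.455 of the Mpo level in irradiated and at 0.315 to 0.354 in control cultures without DL1. With DL1 it stood at 0.347 to 0.423 in irradiated and at 0.274 to 0.352 in control cultures, and the groups overlapped. These ratios were not tested and restate the unequal changes of their 2 genes. The libraries also differed in markers of other blood cells, and the part of those cells in the changes was not tested. The 15 macrophage and monocyte markers summed to 1577 to 2319 FPKM in irradiated and 829 to 1101 FPKM in control cultures, and 13 of the 14 tested rose. Marco, one of these markers, was at 0 in every irradiated culture. The 12 mature neutrophil markers summed to 1853 to 3113 FPKM in irradiated and 1094 to 1192 FPKM in control cultures, and 4 of the 7 tested rose. Megakaryocyte markers summed to 224 to 295 FPKM in irradiated and 102 to 127 FPKM in control cultures, and 3 of the 4 tested rose. Mast cell, basophil and eosinophil markers summed to 163 to 182 FPKM in irradiated and 97.4 to 112 FPKM in control cultures, and 4 of the 11 tested rose. Cytotoxic lymphocyte markers summed to 47.5 to 64.6 FPKM in irradiated and 23.2 to 25.8 FPKM in control cultures, higher without overlap as well. Of the 4 tested, 2 rose and the others had lower means without being called, and 7 of the 10 were under 1 FPKM in every library of each group. Lymphoid progenitor and B cell markers summed lower, to 15.9 to 21.1 FPKM in irradiated and 27.4 to 33.7 FPKM in control cultures. Of the 3 tested, 2 fell and 1 rose, and 7 of the 10 were under 1 FPKM in every library of each group. Erythroid markers summed lower too, to 86.4 to 97.2 FPKM in irradiated and 113 to 121 FPKM in control cultures. Only 2 of these 7 were tested, and 1 fell. Stem cell and sort markers overlapped in their sums, and 1 of the 5 tested, Cd34, fell. Under 1 FPKM in every library were 5 of these 10 markers in irradiated and 4 in control cultures.

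In the presence of DL1, irradiated cultures again had more transcript of the same genes than their controls: 7 of the 8 rose. In this comparison 3.16% of all genes were called, and 2.51% were higher. That share depended on the setting: the 380 genes called became 999 with only those 2 groups in the fit, 222 with no filter and 252 without control replicate 2. They became 104 and 130 without irradiated replicates 2 and 1, and 114 and 130 without control replicates 1 and 3. The median change of the 8 was 0.52, against -0.017 over all genes, and none of the 8 had overlapping groups, as was the case for 15.6% of all genes in that direction. Elane had 709, 767 and 542 FPKM in irradiated cultures with DL1 and 299, 301 and 369 FPKM in control cultures with DL1. Its change of 1.05 ± 0.14 (limma adjusted p = 0.00448) was again the largest. Mpo had 1719, 1814 and 1564 FPKM in irradiated and 1003, 1099.6 and 1049 FPKM in control cultures, a change of 0.69 ± 0.099 (limma adjusted p = 0.00508). Prss57 had 22.6, 23.7 and 19.5 FPKM in irradiated and 13.1, 13.1 and 13.9 FPKM in control cultures, a change of 0.67 ± 0.082 (limma adjusted p = 0.00309). In these 3 genes irradiated replicate 3 was the lowest of its group, and still above every control.

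Ctsg had 727, 806 and 659.5 FPKM in irradiated cultures with DL1 and 474, 522 and 445 FPKM in control cultures with DL1, a change of 0.60 (limma adjusted p = 0.00758). Prtn3 had 1054, 1166 and 1031 FPKM in irradiated and 781, 837 and 777 FPKM in control cultures, a change of 0.44 (limma adjusted p = 0.00758). Both proteases therefore kept a gap between the groups. Cst7 had 65.8, 66.6 and 54.3 FPKM in irradiated and 43.6, 45.3 and 46.8 FPKM in control cultures, a change of 0.45 (limma adjusted p = 0.00976). Ms4a3 had 349, 379.6 and 319 FPKM in irradiated and 268, 268 and 242 FPKM in control cultures, a change of 0.42 (limma adjusted p = 0.0140). Serpinb1a was the exception that missed the threshold: it had 128, 133 and 111 FPKM in irradiated and 104, 105 and 109.6 FPKM in control cultures, a difference of 0.22 (limma adjusted p = 0.132). Leaving out the shallow library, irradiated replicate 2 with DL1, gave 5 genes called, with Ms4a3 at 0.0759 and Cst7 at 0.0594. The same 2 genes were lost without irradiated replicate 1, at 0.0545 and 0.0517. Cst7 was lost without control replicate 1 with DL1, at 0.0569, and Ms4a3 without control replicate 3, at 0.0716. The macrophage and monocyte markers summed to 521 to 620 FPKM in irradiated and 372 to 435 FPKM in control cultures with DL1, and the mature neutrophil markers to 1166 to 1703 FPKM in irradiated and 653 to 749 FPKM in control cultures. Megakaryocyte markers summed lower, to 86.4 to 108 FPKM in irradiated and 119.8 to 123 FPKM in control cultures with DL1, though none of the 4 tested was called. Stem cell and sort markers also summed lower, to 816 to 845 FPKM in irradiated and 906 to 919 FPKM in control cultures, and 1 of the 5 tested fell. The other 4 lists overlapped. The part of these cells in the changes was not tested.

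The change after irradiation was compared directly between cultures with and without DL1. The difference of the log2 changes ran from -0.21 for Elane (95% interval -0.65 to 0.22) to 0.19 for Ms4a3 (-0.047 to 0.43), and it was negative for 7 genes and positive for 1. None of the 8 was called, and none had an unadjusted p under 0.05, whereas 0.0749% of all genes (9 of 12011) were called and 1255 had such a p. The 9 became 191 without irradiated replicate 3 lacking DL1, and between 0 and 7 without any other single library. The intervals do not show that the changes were alike: for Elane a difference of up to -0.65 is inside the interval.

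DL1 lowered most of the granule genes in irradiated cultures, where 7 of the 8 fell and none rose. In that comparison 41.4% of all genes were called and 17.0% were lower (limma, adjusted p under 0.05), and 19.7% of all genes were lower without overlap of the groups, as these 7 were. The median change of the 8 was -0.44, against 0.061 over all genes. With the library values given above, Elane averaged 673 ± 117 FPKM with DL1 and 1234 ± 218 FPKM without it, and fell by 0.87 ± 0.14 on the log2 scale (limma adjusted p = 0.000468). Mpo averaged 1699 ± 126 FPKM with DL1 and 2864 ± 309 FPKM without it, and fell by 0.75 ± 0.099 (limma adjusted p = 0.000101). Ctsg fell by 0.69 ± 0.096 (limma adjusted p = 0.000139), to 731 ± 73.4 FPKM with DL1, against 1180 ± 94.9 FPKM without it. Smaller falls, between 0.31 and 0.50, were found for Ms4a3, Prss57, Prtn3 and Cst7. Serpinb1a stayed apart from the others, at 124 ± 11.2 FPKM with DL1 and 129 ± 11.7 FPKM without it, with overlapping libraries and a change of -0.058 (95% interval -0.22 to 0.0999; limma adjusted p = 0.540).

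In control cultures DL1 lowered 5 of the 8 genes, where 26.3% of all genes were called and 12.3% were lower. The libraries of 7 of the 8 were lower without overlap, as were those of 19.0% of all genes. Ms4a3 averaged 259 ± 15.0 FPKM with DL1 and 418 ± 29.2 FPKM without it, and fell by 0.69 ± 0.077 (limma adjusted p = 4.6e-05). The fall was 0.66 for both Ctsg (limma adjusted p = 0.000278) and Elane (0.00450), 0.56 for Mpo (0.00125) and 0.29 for Prtn3 (0.00936). Prss57 had a change of -0.18 (0.126) and Cst7 one of -0.17 (0.120), and neither was called, although their libraries with DL1 lay below those without. With only those 2 groups in the fit, both were called, at 0.0360 and 0.0305. Serpinb1a had a change of 0.055 (0.618), with overlapping libraries. Macrophage and monocyte markers moved with DL1 too: 14 of 14 tested fell in irradiated and 13 of 14 in control cultures, and the median change over the list was -2.28 in irradiated and -1.52 in control cultures. Of the 7 mature neutrophil markers tested, 6 fell and 1 rose in irradiated cultures, and 4 fell and 1 rose in control cultures. Of 4 megakaryocyte markers tested, 3 fell and 1 rose in irradiated cultures, and 1 fell and 1 rose in control cultures. Cytotoxic lymphocyte markers moved the other way, with 3 of 4 tested rising in irradiated and 4 of 4 in control cultures. The summed levels of the stem cell and sort markers and of the lymphoid progenitor and B cell markers were higher with DL1 without overlap in both, those of the erythroid markers in irradiated cultures and those of the mast cell, basophil and eosinophil markers in control cultures. Single genes were split. In irradiated cultures 2 of 5 tested stem cell and sort markers rose and 1 fell. Of 3 lymphoid markers 2 rose and 1 fell, and of 2 erythroid markers 1 rose and 1 fell. In control cultures 1 of 5 stem cell and sort markers rose and 1 fell, 1 of 3 lymphoid markers rose, and 4 of 11 mast cell, basophil and eosinophil markers rose. The part of these cells in the falls of the granule genes was not tested.

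Set side by side, irradiated cultures with DL1 and control cultures without it divided the 8 genes. Elane, Prss57, Cst7 and Serpinb1a were higher without overlap in irradiated cultures with DL1. Mpo, Prtn3 and Ctsg overlapped between these groups. Ms4a3 was lower in irradiated cultures with DL1, at 319 to 379.6 FPKM, against 386 to 444 FPKM in control cultures. These are values only, since both factors differ between the groups.

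In freshly sorted cells no member was called after irradiation, although all 8 means of log2 values were higher in irradiated libraries. Without control replicate 3 the differences of Prss57 and Cst7 turned, to -0.040 and -0.079. The background was low: 13 of 12890 genes, or 0.101%, were called (limma, adjusted p under 0.05), and 885 had an unadjusted p under 0.05. None of the 8 had groups that did not overlap, a pattern that 7.42% of all genes showed in the higher direction. Among the 8, Prtn3 and Ctsg had an unadjusted p under 0.05. Elane had 83.4, 101 and 82.2 FPKM in irradiated libraries, against 52.9, 93.9 and 47.1 FPKM in control libraries. Ctsg had 69.0, 92.7 and 91.2 FPKM in irradiated and 53.2, 79.9 and 37.1 FPKM in control libraries. In both genes control replicate 2 lay among the irradiated libraries and the other controls lay below them. The same library was the highest control for Mpo, which had 533, 585 and 507 FPKM in irradiated and 398, 649 and 339 FPKM in control libraries. It was so too for Ms4a3, with 12.4, 19.4 and 14.3 FPKM in irradiated and 7.80, 15.7 and 7.14 FPKM in control libraries. Groups also overlapped for Prtn3, with 140.3, 155 and 172 FPKM in irradiated and 127, 145 and 113 FPKM in control libraries.

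The differences in fresh cells were estimated with wide intervals. They were 0.62 for Ctsg (95% interval 0.063 to 1.17), 0.60 for Ms4a3 (-0.0031 to 1.21) and 0.51 for Elane (-0.0042 to 1.03), and they were 0.28 for both Mpo and Prtn3. Prss57 differed by 0.11, with 6.46, 8.51 and 8.28 FPKM in irradiated libraries and 8.17, 7.73 and 5.50 FPKM in control libraries. Cst7 differed by 0.23, with 12.1, 22.6 and 18.8 FPKM in irradiated and 17.1, 19.5 and 9.14 FPKM in control libraries. Serpinb1a differed by 0.23, with 53.0, 49.2 and 68.1 FPKM in irradiated and 50.9, 48.2 and 44.8 FPKM in control libraries. Adjusted p-values ran from 0.672 to 0.959 (limma). Without control replicate 2, which was also the shallowest fresh library at a relative depth of 0.644, the differences were 0.81 for Elane, 0.90 for Ctsg, 0.93 for Ms4a3 and 0.56 for Mpo, and still none was called, with an adjusted p of 0.0834 for Elane. Mature neutrophil markers summed to 1730 to 3686 FPKM in irradiated and 2100 to 4180 FPKM in control libraries, and macrophage and monocyte markers to 152 to 309 FPKM in irradiated and 127 to 242 FPKM in control libraries, so both lists overlapped between the fresh groups. Megakaryocyte markers did not: they summed to 121 to 181 FPKM in irradiated and 64.1 to 89.0 FPKM in control libraries, and 1 of the 7 tested rose. Cytotoxic lymphocyte markers summed to 145 to 178 FPKM in irradiated and 93.4 to 101 FPKM in control libraries, and 1 of the 5 tested rose. Erythroid markers summed to 67.6 to 69.8 FPKM in irradiated and 72.8 to 111 FPKM in control libraries, with none called. The part of these cells was not tested.

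**Figure D2:**
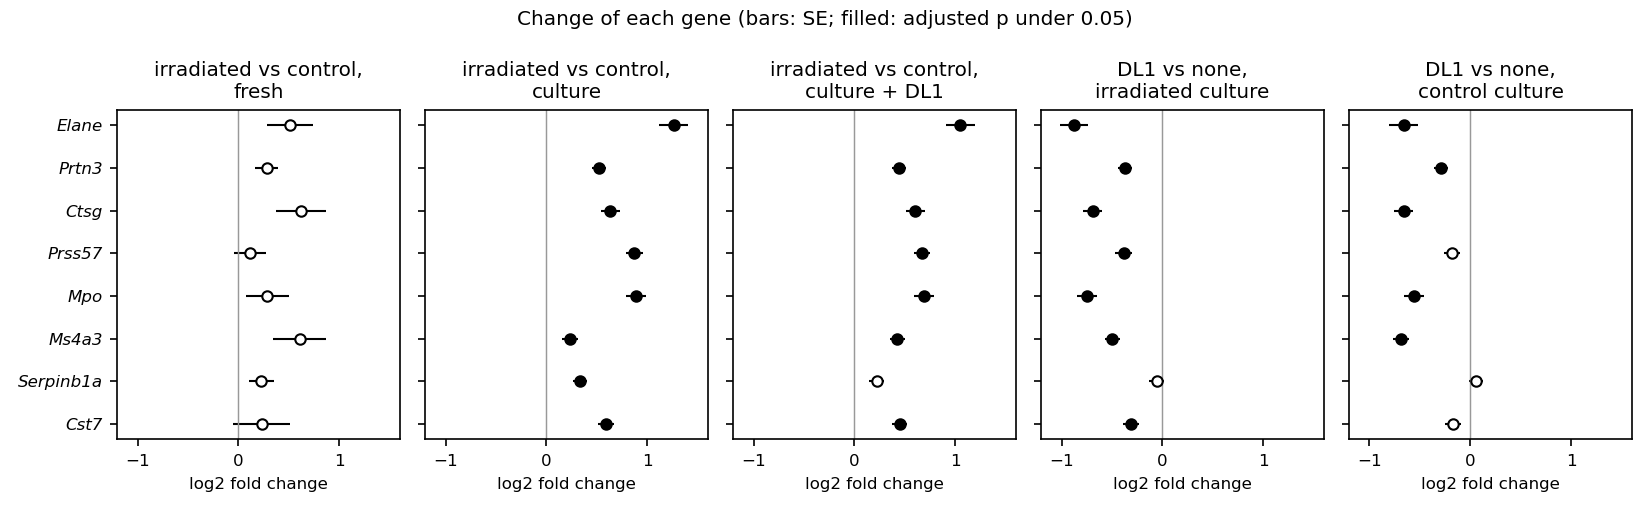
Change of each gene in 5 comparisons, as log2 fold change on the log2(FPKM + 1) scale; bars are SE, and filled dots have a limma adjusted p under 0.05. All 8 dots are filled for irradiated against control cultures and none for fresh cells, and Serpinb1a is open in every panel but that of cultures without DL1.

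Across the 12 cultured libraries the 8 genes varied by different amounts. The root mean square deviation of log2(FPKM + 1) from a gene's own mean was 0.715 for Elane, larger than for 98.4% of the 7211 genes with a mean of at least 10 FPKM. It was 0.526 for Mpo, 0.471 for Ctsg, 0.422 for Prss57 and 0.352 for Ms4a3. Cst7 at 0.300, Prtn3 at 0.299 and Serpinb1a at 0.162 varied least, and for Serpinb1a 73.6% of genes varied less. Likeness between profiles was measured as the root mean square distance between them after each was centred on its mean, over the same 12 libraries, whose 4 groups the profiles share. No member was among the 3 genes nearest to another member. The nearest gene to Elane was S100a8, a calcium-binding alarmin of neutrophils and monocytes, at a distance of 0.116, followed by Ly6a2 and Tgm2. The nearest to Mpo was Gfi1, a transcriptional repressor needed for neutrophil formation, at 0.0653, followed by Pglyrp1 and Arsb, while Ctsg came next at 0.108 with 3 genes closer.

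The nearest profile to Prtn3 was that of Srgn, the proteoglycan core that holds proteases inside granules, at 0.0605, followed by Msra and Chst12. Srgn was also among the 3 nearest to Cst7, after Pcyt1a and Sp100. Ctsg lay nearest to Ptgr1, Nucb2 and Trem3, Ms4a3 nearest to B3gnt2, Ap3s1 and Alas1, and Prss57 nearest to Rgcc, Tex2 and Clec12a. Serpinb1a, with its small variation, lay nearest to Abcb10, 1700123O20Rik and Scly, the first of these at 0.0499. The regulators followed in part. Gfi1 averaged 44.3 FPKM in irradiated and 22.3 FPKM in control cultures, and 24.5 FPKM in irradiated and 14.3 FPKM in control cultures with DL1. Cebpe, the C/EBP factor of late granule genes, averaged 32.2 FPKM in irradiated and 13.1 FPKM in control cultures, and with DL1 26.5 FPKM in irradiated and 14.8 FPKM in control cultures. Cebpa, which codes for C/EBPα, averaged 76.6 FPKM in irradiated and 51.7 FPKM in control cultures, and with DL1 57.9 FPKM in irradiated and 43.1 FPKM in control cultures. Kit averaged 35.5 FPKM in irradiated and 34.9 FPKM in control cultures, and with DL1 34.3 FPKM in irradiated and 39.0 FPKM in control cultures.

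**Figure D3:**
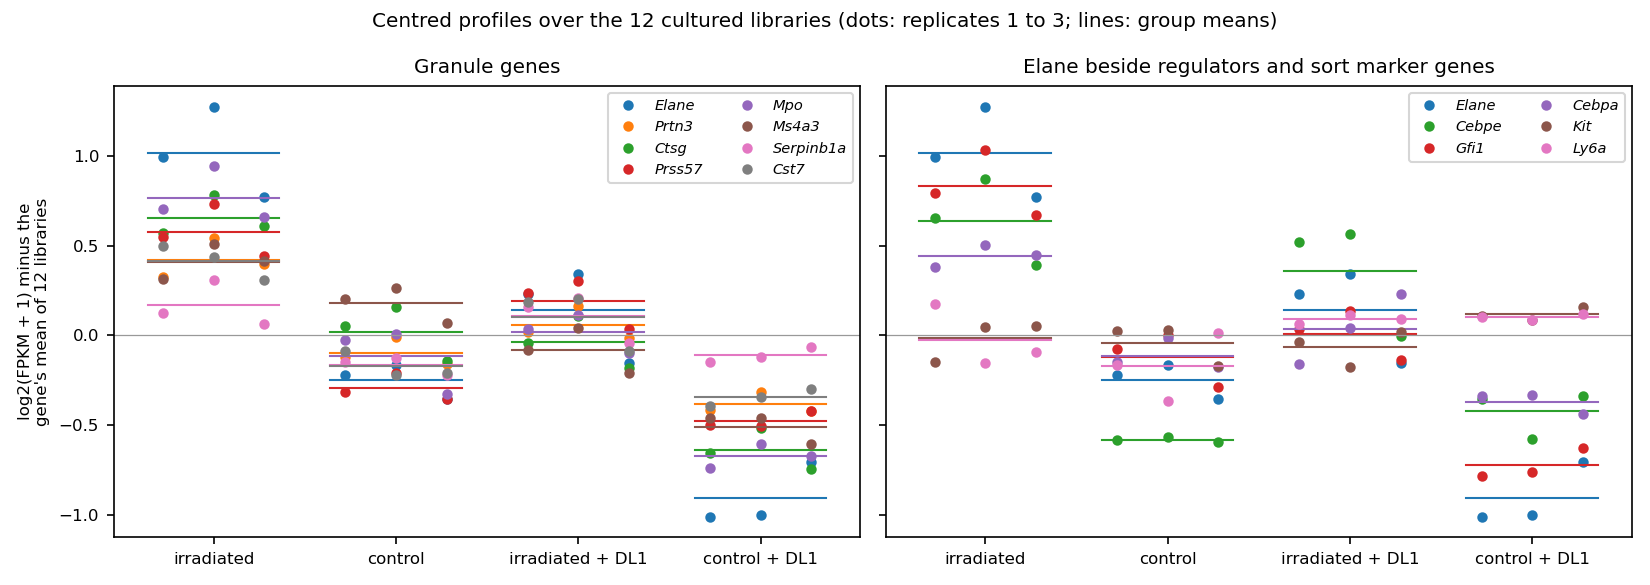
Centred log2(FPKM + 1) values in the 12 cultured libraries for the 8 granule genes (left) and for Elane beside 3 regulators and the sort genes Kit and Ly6a (right). Dots are libraries and short lines group means. Elane spans the widest range of the 8 and Serpinb1a the narrowest, at root mean square deviations of 0.715 and 0.162.

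Other genes of the granule pathway were followed through 6 lists, which were chosen with earlier results of these data known. Over all genes tested, 29.7% were called and 13.8% were higher in irradiated against control cultures without DL1. With DL1 present, 3.16% were called and 2.51% were higher after irradiation. For DL1 against none in irradiated cultures, 41.4% were called and 17.0% were lower. Of 10 genes for protease activation and granule packaging, 6 rose in irradiated against control cultures and none fell. Cd63, a granule membrane tetraspanin that sorts elastase in mouse cells, averaged 234 ± 17.4 FPKM in irradiated and 94.6 ± 3.79 FPKM in control cultures, a change of 1.30 ± 0.073 (limma adjusted p = 3.0e-06). Srgn rose by 0.55, the vesicle GTPase Rab27a by 0.38 and the dipeptidase Dpp7 by 0.52. Ctsc, which codes for the activating cathepsin C, differed by 0.34 and was not called (limma adjusted p = 0.0751). DL1 in irradiated cultures lowered 6 of the 10: Furin, a proprotein convertase, fell by 0.99, Cd63 by 0.78, Dpp7 by 0.61, Srgn by 0.41, and Ctsc by 0.73 (limma adjusted p = 0.00122). Cd63 was called in the difference between the irradiation changes with and without DL1, at -0.81 (limma adjusted p = 0.0142), unlike the 8 members. No gene was called in that difference without control replicate 1 or irradiated replicate 2 of the cultures lacking DL1, or without irradiated replicate 2 with DL1. The median over this list was 0.36 after irradiation and -0.37 with DL1.

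Of 14 other contents of azurophil granules, 13 were tested and 12 rose in irradiated cultures, with a median of 0.59. The lysosomal proteases Ctsd and Ctsb rose by 0.79 and 1.02, and Hexa, a hexosaminidase subunit, by 0.69. With DL1 present, 2 of the 13 rose after irradiation. DL1 lowered all 13 in irradiated cultures, with a median of -0.98. Lysozyme moved most: Lyz2 averaged 768 ± 126 FPKM in irradiated cultures with DL1 and 3752 ± 744 FPKM without it, a fall of 2.28 (limma adjusted p = 2.5e-06), though reads of Lyz1 and Lyz2, near-identical copies, may be shared. Many of these genes, lysozyme and the cathepsins among them, are also expressed by macrophages, whose markers fell as given above.

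In the inhibitor list calls went both ways, and their counts were not tested against the shares over all genes given above. Of 18 genes, 15 were tested, and in irradiated cultures 5 rose and 2 fell. Cstb, a cytosolic cysteine protease inhibitor, rose by 0.95, Cst3, cystatin C, by 0.39 and Serpinb1c by 0.28, while Serpina3g fell by 0.45. The calls of Serpinb1c and Serpina3g were lost with only 2 groups in the fit, at an adjusted p of 0.0570 and 0.0600. In irradiated cultures DL1 lowered 6 and raised 5 of the 15. Slpi, the secretory leukocyte protease inhibitor, fell by 1.82, Cstb by 1.10 and Serpinb6a by 0.93, and Stfa1, a stefin, rose by 1.09 (limma adjusted p = 1.6e-05).

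Of 12 regulators of granule genes, 11 were tested; 6 rose and 1, Cbfb, fell in irradiated cultures. Cebpe rose by 1.22 ± 0.14 (limma adjusted p = 0.000283), Gfi1 by 0.96 ± 0.10 (0.000150), Cebpa by 0.56 ± 0.083 (0.000902) and Cux1 by 0.26. With DL1 present, 4 of the 11 rose after irradiation, among them Cebpe by 0.78, Gfi1 by 0.73 and Cebpa by 0.41. DL1 in irradiated cultures lowered 5 and raised 2 of the 11: Gfi1 fell by 0.82, Myb by 0.51 and Cux1 by 0.26, Cbfb rose by 0.27, and Cebpe had a change of -0.28 that was not called (limma adjusted p = 0.138). The calls of Cbfb and Myb after irradiation depended on the setting, at adjusted p of 0.0556 and 0.0727 with only 2 groups in the fit.

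Of 14 surface and secreted genes of early granulocyte progenitors, 10 rose and 1 fell in irradiated cultures. Csf1r and Ly6c2 of this list are also counted among the macrophage and monocyte markers above, and Cd34 among the stem cell and sort markers. Clec12a, a myeloid C-type lectin, rose by 1.0, Ly6c2 by 1.10 and Mgst1 by 0.58, while Cd34, a progenitor sialomucin, fell to 160 ± 18.4 FPKM in irradiated cultures, against 238 ± 4.42 FPKM in control cultures, a change of -0.58 (limma adjusted p = 0.000254). With DL1 present, 9 rose and 1 fell after irradiation. DL1 in irradiated cultures lowered 11 and raised 1, Cd34, by 0.35, with Fcgr3 falling by 1.28, Ly6c2 by 1.42 and Mgst1 by 0.83.

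Genes of the later, specific and gelatinase granules were also followed, many of which are also counted among the mature neutrophil markers above. Of 14 such genes, 9 passed the filter; 6 of these rose in irradiated cultures and 4 with DL1 present. S100a9 rose by 1.45, S100a8 by 1.41, Ngp by 1.28 and Lcn2 by 0.36. The rise of Ltf, 0.62, lost its call under 6 alternatives, among them 2 groups only (adjusted p = 0.0855), no filter (0.0614) and leaving out replicate 1 or 2 of either group (0.0779 to 0.0910; limma). All 9 fell with DL1 in irradiated cultures, but the call of S100a9, which fell by 0.60, was lost with no filter (0.0649), with 2 groups only (0.0835), and without replicate 1 or 2 lacking DL1 or replicate 1 or 3 with it (0.0519 to 0.125; limma adjusted p). Ltf fell by 2.11, Ngp by 1.70, Mmp8 by 1.04 and Lcn2 by 0.78. In fresh cells none of the genes in the 6 lists was called after irradiation, and the median of the specific granule list was -0.21 over 13 genes, opposite in sign to that of the 8 members, 0.28.

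**Figure D4:**
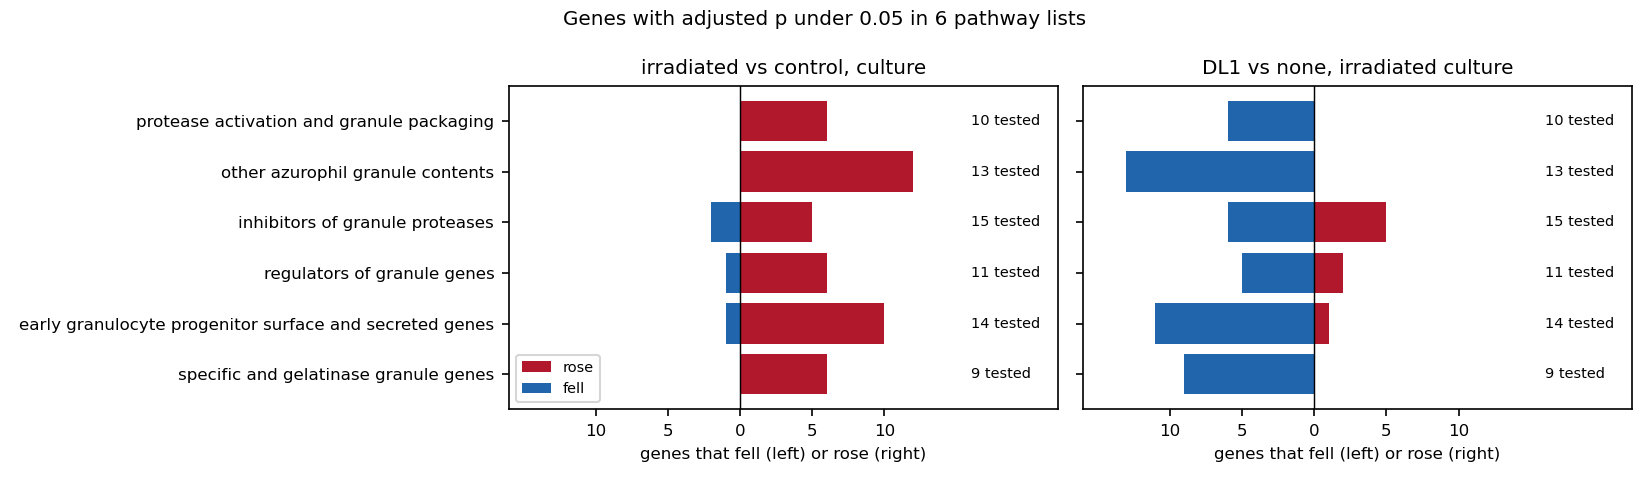
Number of genes in each of the 6 lists that rose (red, to the right) or fell (blue, to the left) with a limma adjusted p under 0.05, in irradiated against control cultures (left) and with DL1 against none in irradiated cultures (right). Numbers of genes tested stand at the right edge; 12 of 13 other azurophil contents rose in the left panel and all 13 fell in the right one.

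Prss57, Prtn3 and Elane lie close together on chromosome 10, and the genes between and beside them did not all move with them. Palm, next to Prss57, averaged 28.6 ± 1.29 FPKM in irradiated and 20.7 ± 1.16 FPKM in control cultures, a change of 0.45 (limma adjusted p = 0.000283). Ptbp1, which codes for a splicing repressor and lies on the Prss57 side of Prtn3, averaged 247 ± 19.0 FPKM in irradiated and 286 ± 6.33 FPKM in control cultures, a change of -0.21 (0.0120) that was lost with only 2 groups in the fit (0.0800) and without control replicate 2 (0.0533). Cfd, the complement factor next to Elane, was below the filter, at 0.425 FPKM in irradiated and 0.250 FPKM in control cultures. Med16, a Mediator subunit beyond it, averaged 16.1 FPKM in irradiated and 16.6 FPKM in control cultures and was not called. Elsewhere, Mcpt8, a basophil protease gene beside Ctsg, rose by 0.76 (limma adjusted p = 0.00221), and Lpo, the peroxidase gene next to Mpo, was below the filter at 1.0 FPKM in irradiated and 0.456 FPKM in control cultures. Exons of Mpo overlap those of Gm11505 and exons of Prss57 those of Fstl3 on the opposite strand. The library kit does not mark strand, so reads of such pairs cannot be told apart; Fstl3 was at 0.540 FPKM in irradiated and 0.320 FPKM in control cultures.

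The starts of 6 of the 8 genes could be read from RefSeq promoter sequences for the mouse build GRCm38.p6, and they are shown to set the sequences of the 6 starts side by side. In each of the 6, the 250 bases before the start held the ETS core GGAAGT on the gene's own strand, which was present on either strand in 19.7% of 32851 promoters of 27025 genes. This and the other motifs were chosen after the sequences had been read, so the share is a description, and a match is not a bound site. Each window below runs 5′ to 3′ on the strand of the gene, with the core in capitals.
Elane (chr10:79886211-79886252, plus strand): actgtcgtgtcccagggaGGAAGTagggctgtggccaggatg
Prtn3 (chr10:79879556-79879597, plus strand): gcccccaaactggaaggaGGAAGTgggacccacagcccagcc
Ctsg (chr14:56102756-56102797, minus strand): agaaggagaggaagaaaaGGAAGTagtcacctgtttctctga
Mpo (chr11:87793544-87793585, plus strand): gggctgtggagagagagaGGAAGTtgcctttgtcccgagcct
Ms4a3 (chr19:11640883-11640924, minus strand): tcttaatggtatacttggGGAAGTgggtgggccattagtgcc
Cst7 (chr2:150570335-150570376, plus strand): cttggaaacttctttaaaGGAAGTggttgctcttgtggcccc

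In Elane, Prtn3 and Mpo the core is part of the longer run GAGGAAGT, which 2.44% of promoters hold and which overlaps the PU.1 core GAGGAA. That PU.1 core was found in 4 of the 6, adding Ctsg, and in 23.3% of all promoters. The position of the ETS core differed: it began 83 bases before the start in Elane, 93 in Prtn3, 62 in Cst7 and 55 in Ms4a3, but 205 in Ctsg and 222 in Mpo. The C/EBP half-site GCAAT, on either strand, was found in Elane and Mpo, in both within 60 bases of the start, and in 23.1% of all promoters. The longer C/EBP pattern TTNNGNAA was found in Ms4a3 and Cst7 and in 36.8% of promoters, the Myb core AACNG in 5 of 6 and in 74.2%, and the Runx site TGTGGT in Ctsg and Cst7 and in 14%. The whole stretches of Elane and Mpo, the protease and the peroxidase with the largest and the next largest of the changes after irradiation in cultures, are given with the ETS core, the PU.1 core and the C/EBP half-site in capitals.
Elane (chr10:79886062-79886311, plus strand): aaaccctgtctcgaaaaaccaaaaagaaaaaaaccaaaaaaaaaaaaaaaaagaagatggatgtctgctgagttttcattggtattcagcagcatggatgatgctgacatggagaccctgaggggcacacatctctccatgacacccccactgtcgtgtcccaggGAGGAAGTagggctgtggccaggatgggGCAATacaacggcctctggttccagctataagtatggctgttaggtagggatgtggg
Mpo (chr11:87793534-87793783, plus strand): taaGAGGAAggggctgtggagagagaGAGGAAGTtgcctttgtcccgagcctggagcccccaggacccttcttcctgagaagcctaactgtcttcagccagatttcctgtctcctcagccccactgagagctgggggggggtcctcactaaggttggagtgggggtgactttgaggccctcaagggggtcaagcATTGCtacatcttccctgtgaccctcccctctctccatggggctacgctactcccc

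**Figure D5:**
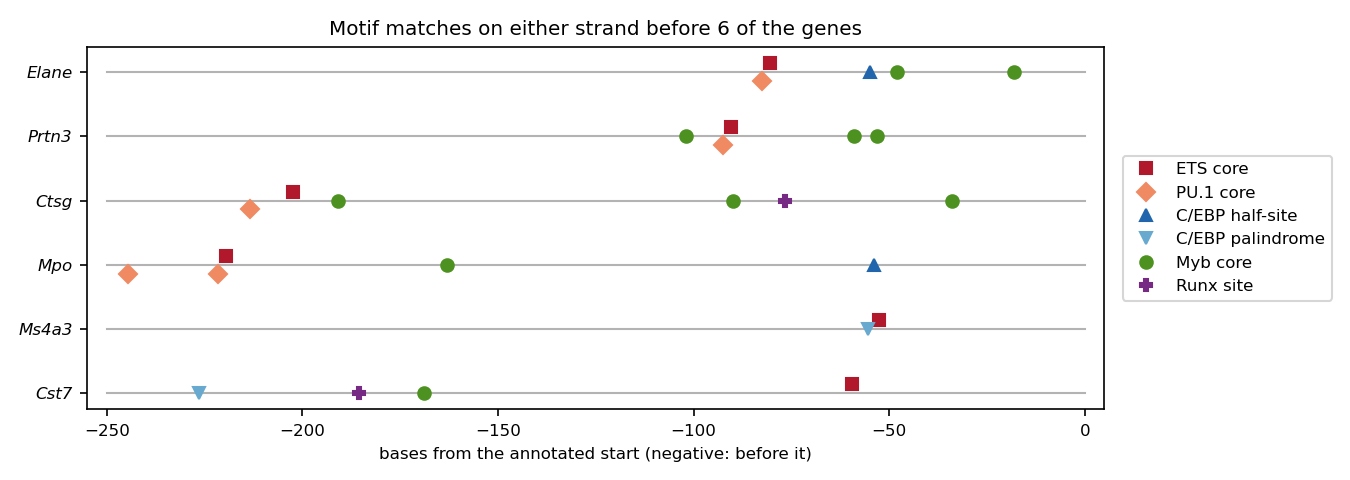
Matches to 6 motifs, on either strand, in the 250 bases before the start of 6 of the genes, by distance from the start in bases. Red squares are the ETS core, present in all 6, and blue triangles the C/EBP half-site, present in Elane and Mpo.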

How the data were processed

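The authors deposited 2 tables of gene levels in FPKM, 1 for the 6 fresh and 1 for the 12 cultured libraries, each with 25629 rows. Tools named in the submitters' processing notes are TopHat 1.4.1, Cufflinks 1.3.0 and Cuffdiff. The notes give hg19, a human build, for these mouse samples. The annotation and any further scaling are not given in the sources used here. Libraries were made with a TruSeq RNA kit, per the labels' protocols. Columns were matched to samples by title, and 0 were left unmatched. The column of irradiated replicate 1 with DL1 has a name unlike those of replicates 2 and 3 and was assigned as the remaining one. The source field of control samples names irradiated cells, whereas titles and conditions say control; these were used. For 28 repeated names only the row of higher mean level was used. Of 25601 names, 88.6% were matched to a mouse symbol of GRCm38.p6, used for names only; PRSSL1 is a synonym of 2 genes, and was taken as Prss57 because the other, Klk10, has its own row.

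Genes with a mean of at least 1 FPKM over the libraries of a table were fitted on the log2(FPKM + 1) scale by limma 3.58.1 (R 4.3.3, mean-variance trend). Two-sided p-values were adjusted by Benjamini-Hochberg over all genes tested, and 0.05 was the threshold. One fit held the 4 cultured groups and another the fresh groups. The pseudocount of 1 understates changes of low genes. On simulated data with each gene's own spread, log2 changes of 1 and of 0.5 were set in 100 genes each. The procedure recovered 81% of those of 1 and 30% of those of 0.5 in the fresh comparison. In irradiated against control cultures without DL1 it recovered 99 and 84%. Unchanged genes were called in 8 and 9 cases. Recovery depends on how many genes change, so these shares do not carry over directly to the data. FPKM carry no read counts, so no count test was used and no counting interval is given. The members and the lists were chosen with earlier results of these data known. Besides members, genes are named if they have one of the 4 smallest p of a list in either of 2 comparisons (irradiated against control, and DL1 against none in irradiated cultures), are among the 3 nearest profiles, are one of the 2 nearest protein-coding neighbours on either side, or belong to a fixed set of 5 (Cebpa, Cebpe, Gfi1, Kit, Ly6a). Some genes that this rule names are not reported here. Ctsc, Gm11505 and Marco were added after their values were seen. Same-numbered irradiated cultures with and without DL1 deviated together from their group means (r from 0.145 to 0.355 in 3 pairs, against -0.254 to 0.0436 in the 6 pairs of unlike number). Whether their numbers pair them cannot be told from this. These groups were singled out after all groups had been compared, and deviations within a group cancel out, so the 2 ranges are not independent. Unlike-numbered irradiated and control cultures without DL1, which come from different mice, reached r = 0.331. A replicate block within the irradiated cultures changed no call of the members. The alternatives tried were a pseudocount of 0.1 or of 5, a filter at 5 FPKM or none, median-ratio scaling, no trend, only the 2 groups compared, the replicate number as a block, and each replicate left out.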

Additional observations from a re-analysis of the deposited data

How the results depend on the processing

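Of the alternatives run on single changes of the 8 genes, 689 kept direction and side of the threshold, 13 lost and 2 gained a call, and 8 changed sign, none of these called. The cause was not tested. With each replicate left out, signs turned for Prss57 (-0.040 to 0.22) and Cst7 (-0.079 to 0.47) in fresh cells, both without control replicate 3, for Serpinb1a with DL1 in irradiated cultures (-0.11 to 0.017; without replicate 2 lacking DL1 or replicate 3 with it), and for Ctsg in the difference between irradiation changes (-0.10 to 0.051; without control replicate 3, irradiated replicate 2, control replicate 2 with DL1 or irradiated replicate 3 with DL1). For 66 changes of other named genes, with a gene counted once per comparison, 934 alternatives kept the call and 20 lost it. Those lost were all for Cbfb, Ltf, Myb, Serpina3g, Serpinb1c and Ptbp1 after irradiation and for S100a9 with DL1.

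Counts of members called ranged, with each replicate left out, from 7 to 8 after irradiation in cultures, 5 to 7 with DL1 present, 7 to 7 for DL1 in irradiated and 5 to 5 in control cultures, and 0 to 0 in fresh cells and for the difference. Counts over all genes were 1880 to 4695 (main 3568), 104 to 285 (380), 3854 to 6002 (4973), 2214 to 2918 (3156), 5 to 15 (13) and 0 to 191 (9) in the same order. With 2 groups only they were 1656 after irradiation and 999 with DL1 present. Without a filter they were 222 with DL1 present, 4 in fresh cells and 3 for the difference, which was 18 with a pseudocount of 5 and 5 with a filter of 5. Between the other cultured groups, same-numbered libraries did not all deviate together (r from -0.168 to 0.158). The 3 same-numbered fresh pairs had r from 0.0571 to 0.211, against -0.223 to 0.0737 in the 6 fresh pairs of unlike number. The numbers are not taken to pair any of the samples in the main fits. The replicate block gave 8, 7, 7, 5, 0 and 0 members, as without it, and 3 genes for the difference. Median-ratio factors lay between 0.956 and 1.04. The replicate block within irradiated cultures, chosen after seeing the data, kept 7 members and gave 4461 genes. FPKM give no read depth beyond relative values.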
